A study of Mus musculus with 8 samples.

Results

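The CCN genes encode secreted proteins of the extracellular matrix that act as signals rather than as structural parts. The table deposited for this study lists 5 of them under their older symbols: Cyr61 (now Ccn1), Ctgf (Ccn2), Nov (Ccn3), Wisp1 (Ccn4) and Wisp2 (Ccn5). They were taken by symbol, each symbol occurred once among the 54532 genes of the table, and all 5 had enough counts to be tested. RNA was sequenced from wild-type (WT) mouse embryonic fibroblasts kept for 4 days in MEF, CFAE+8, CFAE+8+MSC or CFAE+6 medium, and each medium has 2 libraries. MEF is the fibroblast medium. CFAE+8 holds CHIR99021 (an inhibitor of GSK-3, which activates Wnt/beta-catenin signalling), Forskolin (which raises cAMP), AM580 (an agonist of a retinoic acid receptor), EPZ04777 as the labels spell it (which blocks DOT1L, a histone methyltransferase) and A-83-01. CFAE+8+MSC adds MSC2530818, an inhibitor of the kinases CDK8 and CDK19. CFAE+6 has E-616452 in place of A-83-01, and either compound blocks the type I receptor of TGF-beta. The C, F, A and E compounds are thus shared by the 3 cocktails and absent from MEF medium, so no comparison here isolates any of them. The labels give no doses.

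CCN proteins are built from modules that resemble an IGF-binding domain, a von Willebrand type C repeat, a thrombospondin type 1 repeat and a C-terminal cystine knot; the Wisp2 product lacks the last. They bind integrins, syndecans and LRP receptors at the cell surface, and they bind fibronectin and growth factors of the TGF-beta and BMP family. In fibroblasts Ctgf and Cyr61 are textbook targets of the YAP and TEAD transcription factors, of SRF and of TGF-beta signalling. Wisp1 and Wisp2 take their names from induction by Wnt1, and Nov is often described as acting against Ctgf.

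In these cells 4 of the 5 genes were far lower in every cocktail than in fibroblast medium, and Nov was higher. Against CFAE+8, both CFAE+8+MSC and CFAE+6 had more Ctgf and Wisp1 RNA and less Nov and Wisp2 RNA. These comparisons share the CFAE+8 libraries, so their signs are not independent. Cyr61 was also higher in both, by little, and its call in CFAE+6 rested on single libraries. The sizes differed greatly between the genes: Ctgf was 73.8-fold lower in CFAE+8 than in MEF while Cyr61 was 3.17-fold lower.

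Of the RefSeq promoter table for GRCm38.p6, which gives 250 bases before and 50 bases after a gene's start, an entry was found for 1 of the 5 genes, Cyr61. The 250 bases before its start are shown because Cyr61 was the most highly expressed member in all 4 media and kept the largest share of its level among the 4 genes that fell. They lie at chr3:145649986-145650235 on the minus strand and are written 5′ to 3′ on the gene's strand. The capitals mark the matches to the motifs searched.
Cyr61: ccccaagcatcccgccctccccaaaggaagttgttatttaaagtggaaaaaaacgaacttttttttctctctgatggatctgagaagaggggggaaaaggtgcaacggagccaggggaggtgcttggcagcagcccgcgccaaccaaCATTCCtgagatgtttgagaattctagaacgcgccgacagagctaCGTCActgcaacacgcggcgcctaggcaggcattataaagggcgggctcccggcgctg

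Of 5 motifs searched on both strands, 2 matched, and they did not overlap. GGAATG, a motif bound by TEAD factors, matched on the opposite strand from 103 to 98 bases before the start, and 12.6% of 32536 distinct promoter windows of this length held it. TGACG, the core of the cAMP response element, matched on the opposite strand from 58 to 54 bases before the start, and 17.9% of the windows held it. CAGAC (a SMAD box, in 42.2% of windows), CTTTGA (TCF/LEF, in 13.9%) and TGANTCA (AP-1, in 6.73%) had no match among these bases. A match describes letters only; binding was not measured.

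Each library held between 10958430 and 11913143 counts, and 15470 genes passed the filter on low counts. Levels are CPM, that is counts scaled to the library's total after correction for RNA composition, and are given for replicates 1 and 2 of a medium in that order. Group values are mean ± SD with n = 2, and each change is a log2 fold change with its SE from the quasi-likelihood test of edgeR, with Benjamini-Hochberg adjusted p over all 15470 genes. Nothing in the labels states that replicate libraries are separate cultures. The p-values therefore describe the spread between these particular libraries alone, partly borrowed across genes by the test, and that spread may be technical. In bulk RNA, fewer cells of a type and less RNA per cell cannot be told apart.

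Ctgf, known for promoting matrix deposition in fibrosis (ENSMUSG00000019997, mm10 chromosome 10, 24595442 to 24598683, plus strand), stood at 602 and 604 CPM in MEF. It stood at 8.20 and 8.14 CPM in CFAE+8, at 47.3 and 49.7 CPM in CFAE+8+MSC and at 17.3 and 18.0 CPM in CFAE+6. No media overlapped, and the replicates lay close together at every level. The change against MEF was -6.21 ± 0.075 in CFAE+8 (adjusted p = 9.5e-32), -5.10 ± 0.067 in CFAE+6 (adjusted p = 6.1e-31) and -3.64 ± 0.059 in CFAE+8+MSC (adjusted p = 7.6e-29). Among the 7619 genes with a negative change in CFAE+8 against MEF, that of Ctgf ranked 56 by size. Genes with no or few counts in a medium can have extreme changes. They are included in this rank, and in the ranks and shares of larger changes given below. CFAE+8+MSC still held 8.05% of the MEF level, CFAE+6 2.92% and CFAE+8 1.35%. The exons of Ctgf overlap the antisense gene Gm15270 over 23.2% of their length, and without strand information reads of that stretch cannot be assigned. Gm15270 itself had at most 3 counts in any library.

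Cyr61, a pro-angiogenic matrix signal and an immediate early gene (ENSMUSG00000028195, chromosome 3, 145646976 to 145649981, minus strand), had the highest levels of the family. It stood at 1079 and 1074 CPM in MEF, 334 and 345 in CFAE+8, 412 and 410 in CFAE+8+MSC, and 371 and 382 in CFAE+6. MEF was above every cocktail library, and the cocktails lay within a narrow band. The changes against MEF were -1.67 ± 0.043 in CFAE+8, -1.52 ± 0.043 in CFAE+6 and -1.39 ± 0.042 in CFAE+8+MSC, with adjusted p of 6.5e-24, 5.8e-23 and 4.5e-22. Between 31.5% and 38.2% of the MEF level was left in the cocktails. In CFAE+8 against MEF the 95% interval of the Cyr61 change, -1.75 to -1.58, lay far from that of Ctgf, -6.36 to -6.05.

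Nov, known as a regulator of cell growth and cartilage (ENSMUSG00000037362, chromosome 15, 54745702 to 54754039, plus strand), went the other way. It stood at 81.9 and 75.9 CPM in MEF, 258 and 260 in CFAE+8, 173 and 173 in CFAE+8+MSC, and 176 and 170 in CFAE+6. CFAE+8 was the highest medium, MEF the lowest, and the other cocktails shared the middle, where their libraries overlapped. The rise over MEF was 1.72 ± 0.057 in CFAE+8 (adjusted p = 4.0e-21), 1.13 ± 0.058 in CFAE+6 (adjusted p = 1.7e-16) and 1.14 ± 0.058 in CFAE+8+MSC (adjusted p = 1.6e-16).

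Wisp1, a Wnt1-induced matrix protein also linked to fibrosis (ENSMUSG00000005124, chromosome 15, 66891320 to 66923201, plus strand), stood at 397 and 399 CPM in MEF. It stood at 23.0 and 24.8 CPM in CFAE+8, 58.2 and 58.8 in CFAE+8+MSC, and 47.2 and 45.1 in CFAE+6. The media did not overlap, and their order was that of Ctgf. The changes against MEF were -4.06 ± 0.067 in CFAE+8, -3.11 ± 0.061 in CFAE+6 and -2.77 ± 0.059 in CFAE+8+MSC, with adjusted p of 1.1e-28, 8.0e-27 and 7.7e-26.

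Wisp2, a growth-restraining member expressed in mesenchymal cells (ENSMUSG00000027656, chromosome 2, 163820861 to 163833146, plus strand), stood at 112 and 112 CPM in MEF. It stood at 8.28 and 9.50 CPM in CFAE+8, 3.20 and 3.89 in CFAE+8+MSC, and 2.12 and 1.80 in CFAE+6. MEF was highest again, but CFAE+8, the lowest medium for Ctgf, was here the highest cocktail, CFAE+6 was the lowest, and no media overlapped. The changes against MEF were -3.65 ± 0.11 in CFAE+8 (adjusted p = 1.4e-22), -4.98 ± 0.13 in CFAE+8+MSC (adjusted p = 4.0e-24) and -5.84 ± 0.14 in CFAE+6 (adjusted p = 9.9e-25). The CFAE+6 value rests on 24 and 21 counts, so its SE is the widest of the 5 genes in that comparison.

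**Figure D1:**
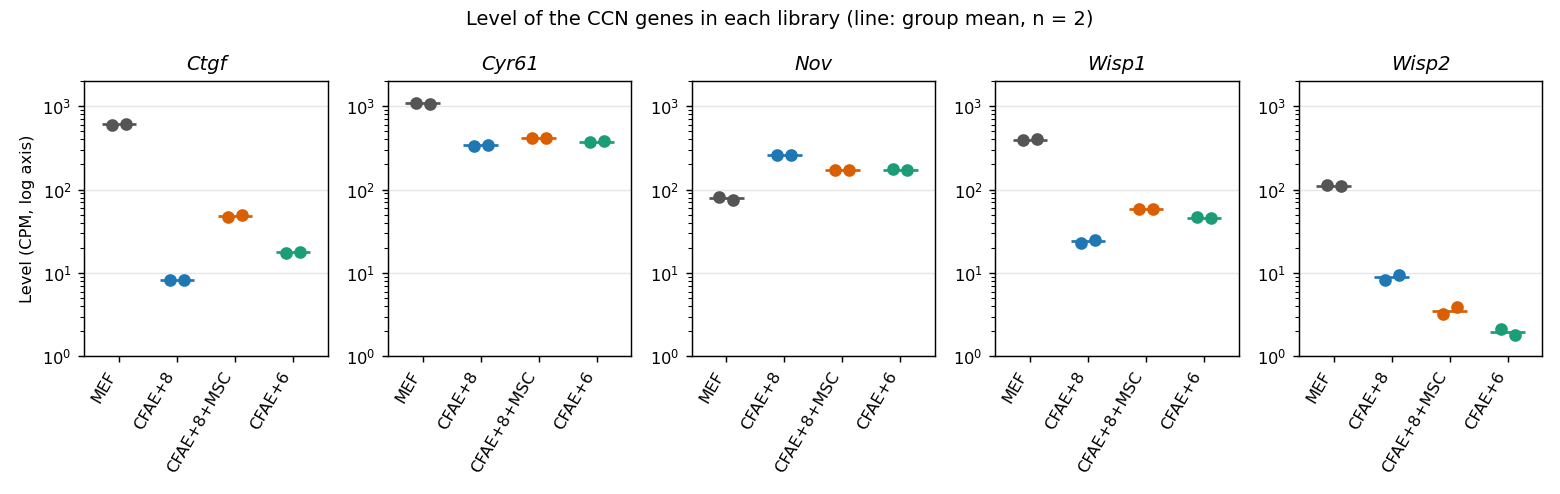
Level of each CCN gene in each of the 8 libraries, in CPM on a log axis; points are libraries, lines are means of 2. Ctgf, Cyr61, Wisp1 and Wisp2 were highest in MEF, Nov was highest in CFAE+8 at 258 and 260 CPM, and replicates of a medium lay close together.

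The sixth gene of the family, Wisp3 (now Ccn6, chromosome 10, 39150970 to 39163794), was close to the limit of detection and was not tested. It had 3 and 4 counts in MEF, 11 and 2 in CFAE+8, 4 and 4 in CFAE+8+MSC, and 0 and 3 in CFAE+6. The count of 0 allows a level of up to 0.264 CPM at a floor of 3 counts, covering counting error only. Exons of Tube1 on the other strand overlap 34.0% of its exon length, and Tube1 had 27 to 127 counts per library, so these counts cannot be tied to Wisp3.

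The comparisons with MEF share the same 2 control libraries, so their likeness is no separate evidence. In each of them all 5 genes were called at an adjusted p of 0.05, 4 lower and 1 higher. These media changed much of the transcriptome, and the count has to be read against that. In CFAE+8 against MEF 62.0% of all genes tested were called, 30.8% higher and 31.3% lower. In CFAE+6 against MEF 63.1% were called, 31.6% higher and 31.5% lower. In CFAE+8+MSC against MEF 64.1% were called, 31.9% higher and 32.2% lower. Beside shares that high, 5 calls of 5 single out nothing about these genes. All 5 genes also changed by at least 1 on the log2 scale, which 24.9%, 25.9% and 26.7% of all genes did in CFAE+8, CFAE+6 and CFAE+8+MSC. The median absolute change of the 5 genes was 3.65 in CFAE+8, beside 0.49 over all genes, 3.11 beside 0.50 in CFAE+6, and 2.77 beside 0.51 in CFAE+8+MSC.

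Adding MSC2530818 while A-83-01 was still present moved all 5 genes, 3 higher and 2 lower, where 29.3% of all genes were called, 15.6% higher and 13.8% lower. Ctgf rose 5.94-fold (log2 change 2.57 ± 0.093, adjusted p = 4.4e-19), and 1.27% of all genes tested had a larger absolute change. Wisp1 rose 2.45-fold (1.29 ± 0.076, adjusted p = 4.4e-14). Cyr61 rose 1.21-fold (0.28 ± 0.043, adjusted p = 8.2e-06), a change smaller than that of 41.4% of all genes. Nov fell by 0.58 ± 0.053 on the log2 scale (adjusted p = 5.4e-10) and Wisp2 fell by 1.33 ± 0.18 (adjusted p = 1.0e-06). Ctgf, Wisp1 and Wisp2 were called with a change of at least 1, as 6.41% of all genes were. The changes of Ctgf, Wisp1 and Cyr61 were toward the MEF level and left them well below it, that of Nov was also toward MEF, and that of Wisp2 was away from it.

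CFAE+6 against CFAE+8 sets E-616452 beside A-83-01, a single pair of TGF-beta receptor inhibitors in the same cocktail. The labels do not say whether their doses were matched, so the difference is one between media. All 5 genes were called, 3 higher and 2 lower in CFAE+6, with 26.6% of all genes called, 14.3% higher and 12.3% lower. That background is 4116 genes, and it was 2720 without CFAE+8 replicate 2. Ctgf was 2.16-fold higher with E-616452 (log2 change 1.11 ± 0.11, adjusted p = 4.3e-09) and Wisp1 1.93-fold higher (0.95 ± 0.078, adjusted p = 1.0e-10). Wisp2 fell by 2.19 ± 0.21 (adjusted p = 1.5e-09), the 52nd largest fall among 7709 genes with a negative change. Nov fell by 0.59 ± 0.053 (adjusted p = 6.3e-10). Cyr61 was 1.11-fold higher (0.15 ± 0.043, adjusted p = 0.0095), and this call was lost without CFAE+8 replicate 1 (adjusted p = 0.15) and without CFAE+6 replicate 2 (adjusted p = 0.071). Ctgf and Wisp2 were called with a change of at least 1, as 5.57% of all genes were. This comparison and the one above share the CFAE+8 libraries.

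CFAE+8+MSC and CFAE+6 were also compared directly. The CFAE+8 levels do not enter this change, but its SE and p use a spread fitted to all 8 libraries. Here 3 of the 5 genes were called, all higher in CFAE+8+MSC, with 10.5% of all genes called, 6.21% higher and 4.27% lower. That background is 1621 genes, and it was 947 without CFAE+6 replicate 2, 990 without CFAE+8+MSC replicate 1 and 997 by DESeq2. Ctgf was 2.75-fold higher in CFAE+8+MSC (log2 change 1.46 ± 0.080, adjusted p = 6.5e-14). It was the only member called with a change of at least 1, as 0.924% of all genes were. Wisp1 was 1.27-fold higher (0.34 ± 0.069, adjusted p = 0.00099). Wisp2 was 1.81-fold higher (0.86 ± 0.25, adjusted p = 0.027), but at 21 to 43 counts per library the call was lost without CFAE+8+MSC replicate 2 (adjusted p = 0.19), without CFAE+6 replicate 1 (0.054) or replicate 2 (0.19), and with only these 4 libraries fitted (0.11). Cyr61 had a change of 0.13 ± 0.043 (adjusted p = 0.054). For Nov the change was 0.0053 ± 0.054 with a 95% interval of -0.11 to 0.12 (adjusted p = 0.97), which limits any difference to a small one without showing that the media act alike on it.

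**Figure D2:**
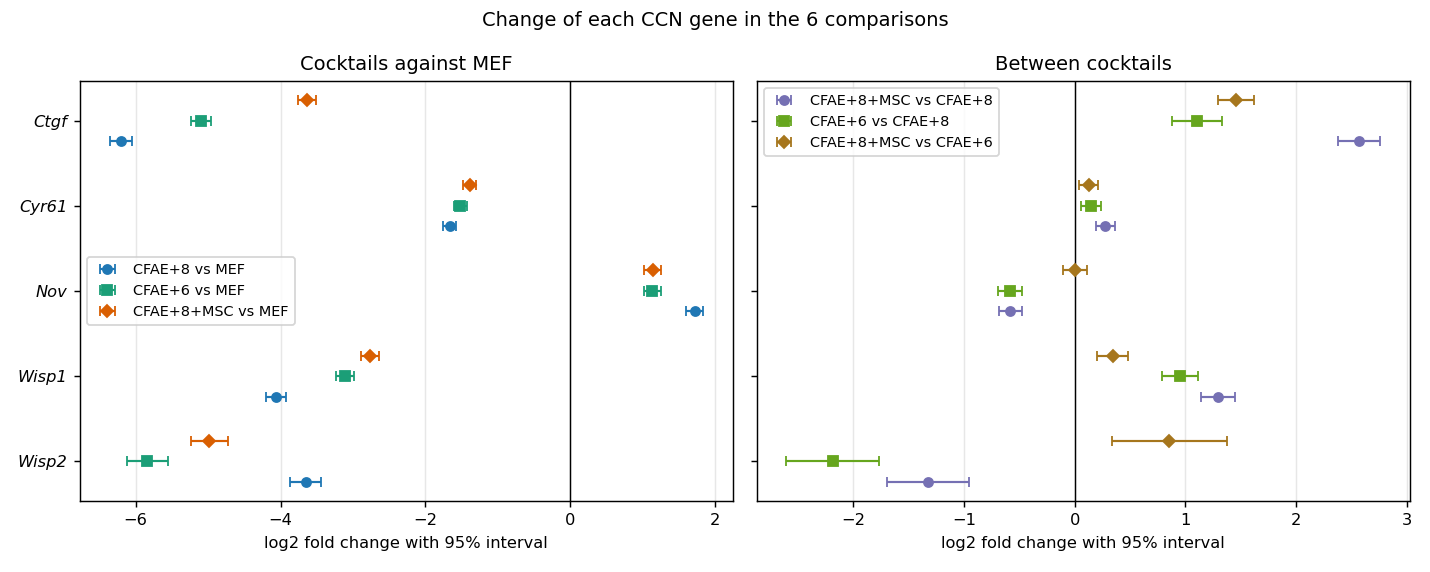
log2 fold change of each CCN gene with its 95% interval in the 6 comparisons; the left panel sets the cocktails against MEF and the right panel sets the cocktails against each other. Ctgf had the largest change in CFAE+8 against MEF (-6.21) and the largest in CFAE+8+MSC against CFAE+8 (2.57), while Nov lay on the opposite side of 0 from the other genes in the left panel.

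Levels of different genes can be compared only per length, and CPM was therefore divided by the gene length in kilobases given in the table. In MEF the order was Cyr61 (533 ± 1.72 CPM per kilobase), Ctgf (211 ± 0.51), Wisp1 (71.5 ± 0.179), Wisp2 (58.1 ± 0.244) and Nov (27.5 ± 1.47), with every neighbour apart by more than the spread. In CFAE+8 Nov was second at 90.3 ± 0.49 after Cyr61 at 168 ± 3.94. Below them Wisp2 (4.62 ± 0.448) and Wisp1 (4.29 ± 0.229) did not differ beyond their spread, and Ctgf had become the lowest (2.86 ± 0.013). In CFAE+8+MSC the order was Cyr61 (204 ± 0.523), Nov (60.4 ± 0.00347), Ctgf (17.0 ± 0.607), Wisp1 (10.5 ± 0.0745) and Wisp2 (1.84 ± 0.252). In CFAE+6 Wisp1 (8.29 ± 0.261) lay above Ctgf (6.16 ± 0.172), between Nov (60.2 ± 1.49) and Wisp2 (1.02 ± 0.117), and Cyr61 led at 186 ± 3.7. Ctgf thus moved from second place in MEF to last in CFAE+8.

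The summed level of the 5 genes was 901 ± 2.75 CPM per kilobase in MEF, and it was 293 ± 0.406 with CFAE+8+MSC, 270 ± 5.1 with CFAE+8 and 262 ± 2 with CFAE+6. The sum therefore differed little between the cocktails, while its makeup did. Ctgf made up 23.4 ± 0.128% of it in MEF, 5.78 ± 0.199% in CFAE+8+MSC, 2.35 ± 0.0478% in CFAE+6 and 1.06 ± 0.0248% in CFAE+8. Nov made up 3.05 ± 0.154% in MEF and 33.5 ± 0.45% in CFAE+8, against 20.6 ± 0.0297% in CFAE+8+MSC and 23.0 ± 0.744% in CFAE+6. Cyr61 held more than any other member in all media, from 59.2 ± 0.0104% in MEF to 71.1 ± 0.867% in CFAE+6. These shares were not tested.

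**Figure D3:**
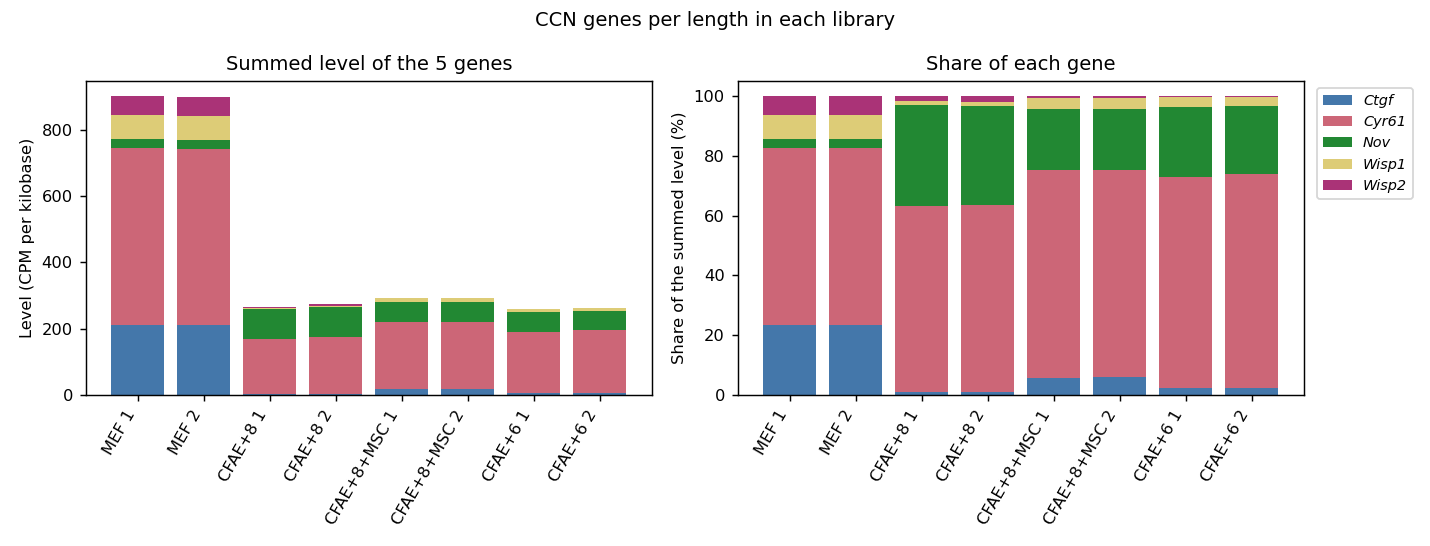
Stacked bars per library of the 5 CCN genes, as CPM per kilobase (left) and as percent of their sum (right). The sum fell from 901 CPM per kilobase in MEF to between 262 and 293 in the cocktails, and the Nov share grew from 3.05% to 33.5% in CFAE+8.

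Most genes of the cell-surface partners of CCN proteins were lower in CFAE+8. Of 15 receptor and co-receptor genes, 14 were tested, and in CFAE+8 against MEF 3 were higher and 11 lower (median change -0.62, beside 0.01 over all genes). Of all genes tested, 30.8% were called higher and 31.3% lower in that comparison, and 15.6% and 13.8% in CFAE+8+MSC against CFAE+8. The counts of each list below stand beside the same shares. Sdc4, the heparan sulfate proteoglycan syndecan-4, fell from 155 ± 6.05 to 30.2 ± 0.885 CPM, the endocytic receptor gene Lrp1 from 3337 ± 177 to 1780 ± 19.8 CPM and the integrin gene Itgb1 from 2042 ± 16.3 to 1304 ± 8.98 CPM. With MSC2530818 7 were higher, 1 lower and 6 not past the threshold (median 0.17, beside -0.0045). Itgb3, the beta subunit of the vitronectin receptor that binds CCN proteins, rose from 12.8 ± 0.54 to 46.1 ± 0.154 CPM, and was higher than in MEF (32.1 ± 0.9 CPM, adjusted p = 2.2e-05). Itga6, a laminin receptor subunit, rose from 105 ± 2.4 to 171 ± 11.7 CPM, and Lrp1 fell to 1418 ± 47.6 CPM.

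Genes of proteins that CCN factors bind divided. Of 12, 4 were higher and 8 lower in CFAE+8 against MEF (median -1.52, beside 0.01), and 5 were higher, 3 lower and 4 not past the threshold with MSC2530818 (median 0.12, beside -0.0045). Fn1, fibronectin, fell from 10827 ± 413 to 2415 ± 7.16 CPM and was at 3056 ± 63.3 CPM with MSC2530818, a rise. Bgn, the proteoglycan biglycan, fell from 3513 ± 41.7 to 182 ± 5.22 CPM. Bmp2, a bone morphogenetic protein gene, rose from 5.64 ± 0.447 to 282 ± 7 CPM and fell to 158 ± 8.72 CPM with MSC2530818, whereas Bmp4 rose from 86.9 ± 4.3 to 194 ± 3.57 CPM with it.

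Among 20 genes of the Hippo pathway with YAP, TAZ and the TEAD factors, 5 were higher, 11 lower and 4 not past the threshold in CFAE+8 against MEF (median -0.33, beside 0.01). With MSC2530818 3 were higher, 2 lower and 15 not past it (median -0.0080, beside -0.0045). Yap1 had 301 ± 13.3 CPM in MEF, 296 ± 11.1 in CFAE+8 and 294 ± 6.8 in CFAE+8+MSC (adjusted p = 0.66 and 0.90). Wwtr1, which encodes TAZ, fell from 157 ± 5.81 to 107 ± 3.06 CPM in CFAE+8 and had 108 ± 1.5 CPM with MSC2530818 (adjusted p = 0.90). Vgll3, a TEAD cofactor gene, fell from 278 ± 7.54 to 18.5 ± 0.325 CPM and rose to 51.0 ± 2.07 CPM with MSC2530818. Amotl2 and Amot, angiomotin genes that restrain YAP, fell from 735 ± 2.96 to 98.4 ± 2.49 CPM and from 188 ± 2.29 to 65.6 ± 0.062 CPM in CFAE+8. With MSC2530818 Amotl1 rose from 369 ± 3.19 to 428 ± 13.2 CPM and Tead3 fell from 60.2 ± 4.36 to 47.8 ± 3.35 CPM.

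Of 20 other YAP and TEAD target genes (Ctgf and Cyr61 left out), 5 were higher, 14 lower and 1 not past the threshold in CFAE+8 against MEF (median -0.999, beside 0.01). With MSC2530818 10 were higher, 1 lower and 9 not past it (median 0.25, beside -0.0045). F3, tissue factor, fell from 278 ± 3.61 to 14.3 ± 0.606 CPM and rose to 42.6 ± 1.39 CPM with MSC2530818. Axl, a receptor tyrosine kinase gene, fell from 893 ± 29.1 to 142 ± 2.42 CPM. Crim1, which encodes a BMP-binding membrane protein, rose from 68.2 ± 6.81 to 131 ± 0.951 CPM with MSC2530818, and Tgfb2, a TGF-beta ligand gene, from 242 ± 6.52 to 535 ± 8.14 CPM. The lists are not independent, since some genes stand on more than 1. Amotl2, Lats2 and Ptpn14 are on both YAP lists, Bgn, Fn1 and Tgfb1 on the partner and TGF-beta lists, and Itgb3 on the receptor and TGF-beta lists. Some also stand on marker lists: Acta2, Actg2, Cnn1 and Myocd (SRF and smooth muscle), Col1a1 and Col1a2 (TGF-beta and fibroblast), Acan and Dcn (partners, with cartilage and fibroblast), and Itgam (receptors and macrophage).

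The SRF and MRTF list had 2 of 15 genes higher and 13 lower in CFAE+8 against MEF (median -1.14, beside 0.01), and 10 higher and 4 lower with MSC2530818 (median 0.48, beside -0.0045). Its contractile genes Acta2, Actg2 and Myl9 fell by 5.37, 6.93 and 2.87 on the log2 scale in CFAE+8. With MSC2530818 Acta2 and Actg2 rose by 4.30 and 6.32, and Cnn1, calponin, by 3.75. Of 20 TGF-beta target genes 1 was higher and 17 lower in CFAE+8 against MEF (median -1.68, beside 0.01). The falls of Lox, which crosslinks collagen (-7.52 ± 0.065), and Thbs1, thrombospondin (-5.50 ± 0.040), lay on either side of that of Ctgf. With MSC2530818 12 were higher and 4 lower (median 0.225, beside -0.0045), and Postn, periostin, and Thbs1 rose by 3.40 and 1.93, where Ctgf rose by 2.57. In CFAE+6 against CFAE+8 the same list had 6 higher and 10 lower (median -0.25, beside 0.00088), where 14.3% of all genes were called higher and 12.3% lower. Ctgf was among the genes that were higher in CFAE+6.

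Wnt/beta-catenin target genes did not follow Wisp1 and Wisp2. Of 18, 15 were higher, 2 lower and 1 not past the threshold in CFAE+8 against MEF (median 5.67, beside 0.01), while both Wisp genes fell. Apcdd1, a membrane inhibitor of Wnt signalling, rose by 6.22 ± 0.047, Nkd1, an intracellular inhibitor, by 6.64 ± 0.083 and Notum by 8.80 ± 0.12; Notum is uncertain, since 38.1% of its exon length overlaps other genes. Dkk1, a secreted Wnt inhibitor, had no count in MEF and 33.6 ± 3.34 CPM in CFAE+8, at least 120-fold higher against a floor of 3 counts per library, and the median of the list was the same with Dkk1 at that bound. With MSC2530818 8 were higher, 4 lower and 6 not past the threshold (median 0.17, beside -0.0045). Among them Nkd2 rose by 0.65, Apcdd1 fell by 0.50 and Ccnd1, cyclin D1, which has 23.4% of its exon length overlapped, fell by 0.47. Of 14 cAMP and CREB target genes 7 were higher and 5 lower in CFAE+8 against MEF (median 0.24, beside 0.01). Pde4d and Pde3b, phosphodiesterase genes that limit cAMP, rose by 2.61 and 1.82, and Cited2, a transcription cofactor gene, fell by 1.66, beside 1.67 for Cyr61. With MSC2530818 8 were higher and 1 lower (median 0.345, beside -0.0045), with Areg, an EGF receptor ligand gene, up by 1.33, Pde10a by 0.87 and Pde3b by 0.84.

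**Figure D4:**
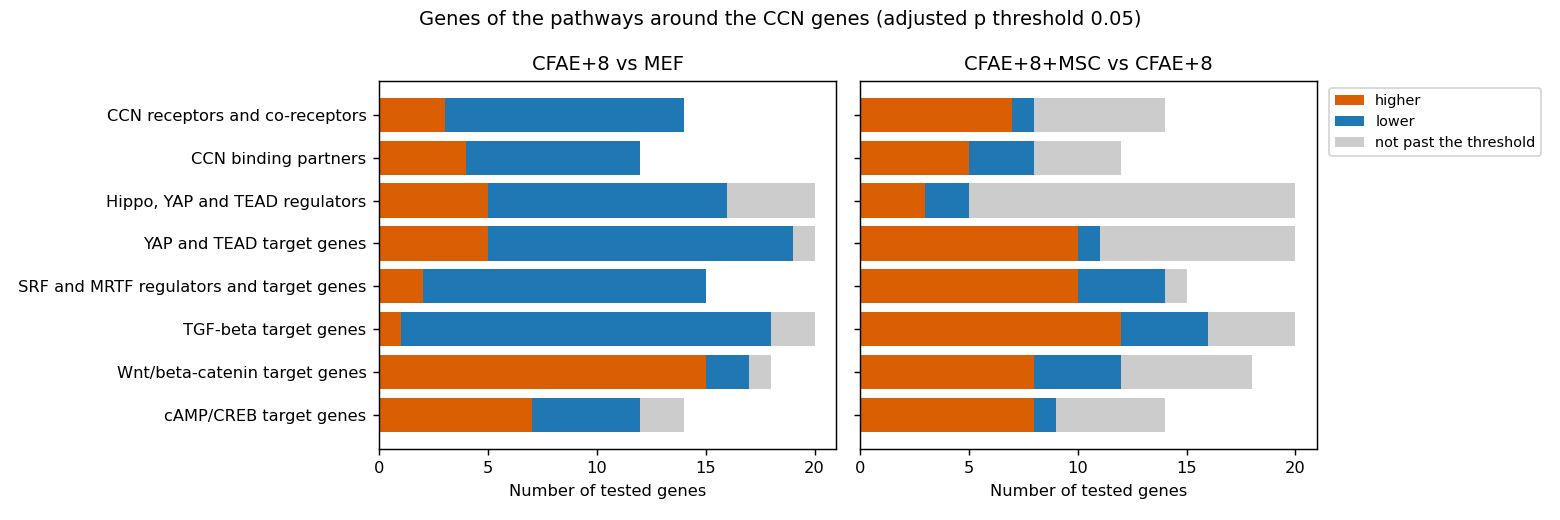
Number of tested genes of each list that were called higher, called lower or did not pass an adjusted p of 0.05, in CFAE+8 against MEF (left) and in CFAE+8+MSC against CFAE+8 (right). TGF-beta targets had 17 of 20 lower on the left and 12 of 20 higher on the right, and Wnt/beta-catenin targets had 15 of 18 higher on the left. Of all genes tested, 30.8% were higher and 31.3% lower on the left, and 15.6% and 13.8% on the right.

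The genes whose pattern over the 8 libraries came nearest to each member were found by the root mean square difference of log2 CPM centred on each gene's mean, among 10718 candidates whose mean was 5 CPM or more. The genes share these libraries and the step between MEF and the cocktails, and no test was made. A gene picked for likeness tends to share the member's order of media, so a shared order is no separate result. C1qtnf3 (0.26) and P2ry10b (0.31) were among the genes nearest to Ctgf. P2ry10b passed the limit on the mean only through MEF (20.7 CPM); at 0.255, 0.974 and 0.477 CPM in CFAE+8, CFAE+8+MSC and CFAE+6 it lay near the floor of 3 counts, so its order among the cocktails rests on few counts. C1qtnf3 had 196 ± 0.809 CPM with MEF medium, 17.7 ± 0.417 with CFAE+8+MSC, 6.70 ± 0.753 with CFAE+6 and 4.00 ± 1.06 with CFAE+8, the order of Ctgf. Wisp1 was nearest to Tll1, a protease that processes procollagen (0.123), F3 (0.137) and Vgll3 (0.153).

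Cyr61 was nearest to the amino acid transporter gene Slc1a4 (0.0541), Cited2 (0.0636) and Eef2k, a kinase that slows translation (0.066). Nov was nearest to the adhesion gene Clmp (0.0949), Arsb (0.0977) and Mst1r (0.113), all lowest in MEF. Antisense genes overlap 39.9% of the exon length of Arsb and 10.1% of that of Clmp, so both are uncertain. Wisp2 was nearest to Trib3 (0.354), Lcp1 (0.387) and Ly6a (0.558), at larger distances. The measure is not scaled to the size of a gene's change or to its counting noise. Distances of different members therefore do not rank how tight their patterns are. Trib3 and Lcp1 passed the limit on the mean only through MEF (45.7 and 20.3 CPM) and had at most 2.64 and 1.62 CPM in a cocktail. Between members, Ctgf and Wisp1 (0.873) and Cyr61 and Wisp1 (0.861) were nearest, and Ctgf and Nov (2.95) were farthest apart.

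**Figure D5:**
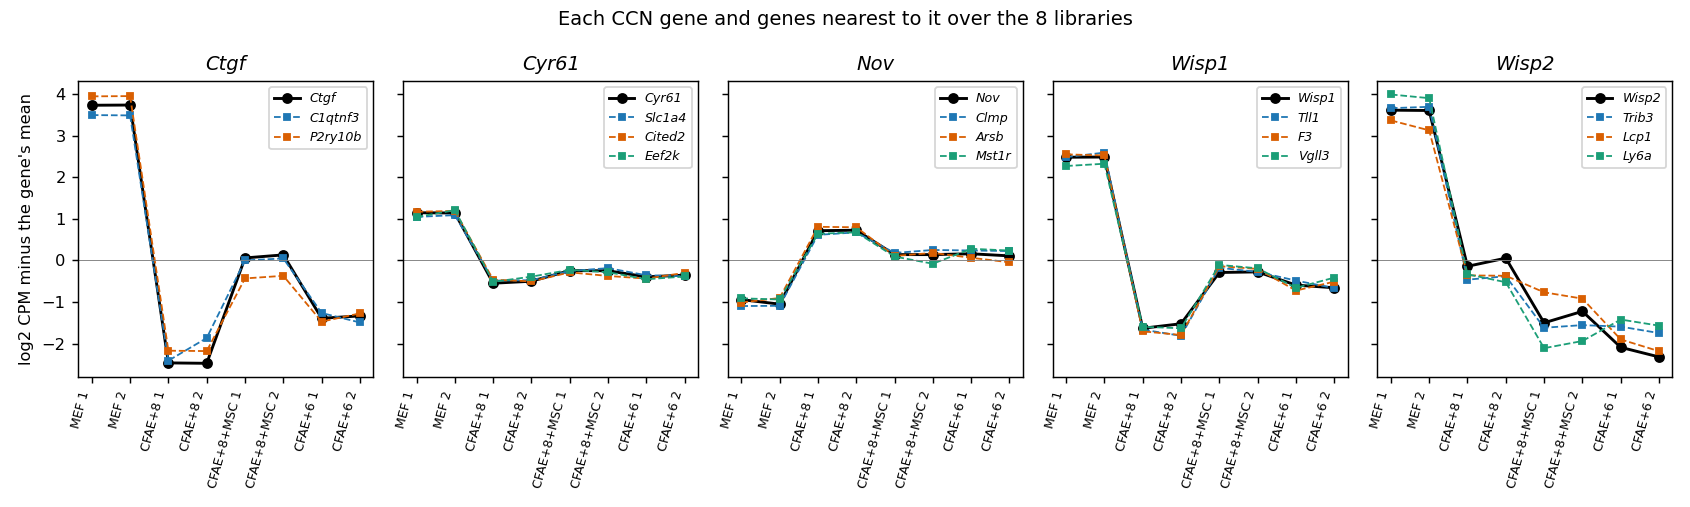
log2 CPM minus the gene's mean over the 8 libraries, for each CCN gene (black) and genes nearest to it (dashed), 2 for Ctgf and 3 for each other member. The 3 neighbours of Cyr61 lay within a root mean square of 0.066 of it, while those of Wisp2 lay up to 0.558 away. The measure is not scaled to the size of a gene's change.

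Markers were summed per library to check the labelled cell type. All 15 fibroblast markers had a count in every medium, and their sum was 39532 to 40686 CPM in MEF and 15147 to 17000 CPM in the cocktails. S100a4 lay near the floor of 3 counts in CFAE+8, at 0.297 ± 0.299 CPM. The single markers divided: in CFAE+8 against MEF 5 were higher, 9 lower and 1 not past the threshold, and 6 were higher and 9 lower in each of the other cocktails. In CFAE+8 the abundant Col1a1 (14726 ± 382 to 4058 ± 66.6 CPM) and Fbln2 (5079 ± 148 to 502 ± 4.75 CPM) fell, while Thy1 (681 ± 13.6 to 1100 ± 8.14 CPM) and Twist2 (42.6 ± 3.88 to 153 ± 7.26 CPM) rose. Of 15 macrophage markers, 14 were lower in CFAE+8 against MEF, with sums of 244 to 246 CPM in MEF, 47.2 to 48.1 in CFAE+8, and 26.3 to 30.2 in the other cocktails, with no count of Itgam in CFAE+8+MSC. Of 10 mesothelial markers, 8 were lower, with sums of 167 to 168 CPM in MEF and 11.5 to 12.5 in CFAE+8, where Upk3b and Lrrn4 had no count. These sums were 46.5 to 52.0 in CFAE+8+MSC and 40.2 to 40.9 in CFAE+6, and Lrrn4 had no count in either. Most of these 2 sums was keratin RNA that the epithelial list also counts, with Krt8, Krt18 and Krt19 at 10.7, 19.8 and 10.4 CPM in CFAE+8+MSC and 8.47, 14.3 and 10.7 CPM in CFAE+6. Msln, mesothelin, fell from 101 ± 3.83 CPM in MEF to 0.809 ± 0.425 in CFAE+8 and stood at 2.87 ± 0.475 in CFAE+8+MSC and 1.21 ± 0.589 in CFAE+6. Smooth muscle marker sums had the order of Ctgf and Wisp1. They were 3227 to 3261 CPM in MEF, 1760 to 1776 in CFAE+8+MSC, 778 to 792 in CFAE+6 and 126 to 127 in CFAE+8. Of the 10 markers, 8 were higher in CFAE+8+MSC than in CFAE+8. Against MEF, 4 were higher and 6 lower in CFAE+8+MSC, beside 31.9% and 32.2% of all genes. Acta2 made up much of the sum, at 2664 ± 18.7 CPM in MEF and 1268 ± 13.4 in CFAE+8+MSC. Myh11 went the other way, from 47.3 ± 5.89 CPM in MEF to 138 ± 2.11 in CFAE+8+MSC.

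Cartilage and bone markers summed to 1710 to 1733 CPM in MEF and 511 to 663 in the cocktails, with Bglap at 0 in CFAE+8 and Matn1 at 0 in the others. Of the 12 tested, 4 were higher, 7 lower and 1 not past the threshold in CFAE+8 against MEF. The cartilage collagen gene Col2a1 fell (248 ± 20.3 to 5.06 ± 0.805 CPM), as did Spp1 (983 ± 32.3 to 390 ± 18 CPM), whereas the bone genes Runx2 (42.9 ± 0.863 to 92.6 ± 3.31 CPM), Sp7 (1.72 ± 0.681 to 49.7 ± 2.96 CPM) and Ibsp (0.283 ± 0.271 to 20.8 ± 0.326 CPM) rose. Endothelial markers summed to 133 to 145 CPM in MEF, with no count of Tie1 or Cldn5, and to 70.6 to 140 in the cocktails, with Tie1 at 0 in CFAE+8, Tie1 and Emcn in CFAE+8+MSC and Emcn in CFAE+6. Of the 7 tested, 3 were higher, 3 lower and 1 not past the threshold in CFAE+8 against MEF. Flt1, most of the MEF sum, fell from 116 ± 9.37 to 10.3 ± 0.0131 CPM, while Esam rose from 1.17 ± 0.0356 to 36 ± 3.47 CPM. Epithelial markers summed to 21.6 to 25.9 CPM in MEF, 11.7 to 12.5 in CFAE+8 and 41.9 to 49.1 in the other cocktails, with Esrp1 and Grhl2 at 0 in MEF, Cldn3 and Esrp1 in CFAE+8 and Grhl2 in CFAE+8+MSC. Of the 8 tested, 1 was higher, 3 lower and 4 not past the threshold in CFAE+8 against MEF. Krt18 and Krt19 made up much of the MEF sum, at 5.87 ± 0.903 and 11.5 ± 1.22 CPM. Neuronal markers summed to 163 to 172 CPM in MEF and 621 to 814 in the cocktails, with Rbfox3 at 0 in every medium but CFAE+6 and Snap25 at 0 in MEF. Of the 9 tested, 8 were higher and 1 lower in CFAE+8 against MEF, beside 30.8% and 31.3% of all genes. Gap43 made up much of the sum, at 87.9 ± 0.0209 CPM in MEF and 309 ± 4.61 in CFAE+8. Map2 fell from 17.0 ± 1.54 to 3.45 ± 0.285 CPM. The part of any of these cell types in the changes of the CCN genes was not tested.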

How the data were processed

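The deposited table holds raw counts per Ensembl gene, 1 column per library, with a gene length in bases (a unit of its own) for each gene. Per the submitters' processing notes the authors used featureCounts, Subread and DESeq2 on mm10. Their versions, the strand setting, the annotation release and the aligner were not given in the sources used here. Per the labels' protocols, total RNA came from an EasyPure RNA kit and libraries were made with a NEBNext Ultra kit that does not mark strand.

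The table's identifiers were matched to GENCODE M21 (GRCm38): 54409 of 54532 were found, and 53499 had the same start and end. The filterByExpr function of edgeR 4.0.16, run in R 4.3.3, kept 15470 genes and 99.85% of the counts, and libraries were scaled with TMM. The quasi-likelihood F test was fitted with 1 mean per group to all 8 libraries (4 residual degrees of freedom; common biological coefficient of variation 0.0445), with Benjamini-Hochberg adjustment over all genes. The SE was obtained as the unshrunken change divided by the root of the F statistic. The 95% intervals came from the t distribution on the test's total degrees of freedom, which borrow from other genes and exceed the 4 residual ones. The fit was also run on simulated counts with the same spread for every gene and few genes changed. Such counts cannot show how it behaves where most genes change, as against MEF here. Libraries of a group differed beyond counting noise (chi-square per degree of freedom 1.87 to 2.67), so none were merged.

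The members and lists were chosen with earlier results of these data known. Named genes are the 5 members, Wisp3, the 3 genes per list with the smallest adjusted p in CFAE+8 vs MEF and in CFAE+8+MSC vs CFAE+8, and the 3 nearest genes per member, passing over predicted genes and pseudogenes; 1 gene that these rules name is not reported here. Yap1, Wwtr1, Dkk1, the MEF level of Itgb3 and the single markers named were chosen after their values were seen. Lists were described without a set test. Alternatives were DESeq2 1.42.0, other scalings and filters, a fit of only the groups compared, a replicate block and leaving out each library.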

Additional observations from a re-analysis of the deposited data

How the results depend on the processing

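Over 15 alternatives for each of 30 gene and comparison pairs, 441 of 450 changes of the CCN genes kept their direction and their side of the threshold, and every change against MEF did so. The exceptions were in Cyr61 for CFAE+6 vs CFAE+8, and in Cyr61, Nov and Wisp2 for CFAE+8+MSC vs CFAE+6. Cyr61 there passed with a filter of a mean of at least 1 CPM (adjusted p = 0.047), where fewer genes were tested. Nov, near 0, had a change of -0.0078 with upper-quartile scaling and lay between -0.020 (without CFAE+6 replicate 2) and 0.031 (without CFAE+6 replicate 1) with libraries left out, and the cause was not tested. Without each library in turn, the number of CCN genes called was 4 to 5 for CFAE+6 vs CFAE+8 and 2 to 3 for CFAE+8+MSC vs CFAE+6. The numbers of all genes called were 2720 to 4154 (4116 with all libraries) and 947 to 1531 (1621), and were lowest without CFAE+8 replicate 2 and without CFAE+6 replicate 2; without CFAE+8+MSC replicate 1 the latter was 990. A medium left with 1 library is assumed to vary like the others. The DESeq2 test called 997 genes in CFAE+8+MSC vs CFAE+6, and the cause was not tested.

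With the replicate block, 5 CCN genes were called in each comparison but CFAE+8+MSC vs CFAE+6, with 3, and 9584 genes in CFAE+8 vs MEF (9597 without the block). Same-numbered libraries share only a number: their deviations correlated at -0.0212 to 0.0369. Plain library totals moved levels by a factor of 0.92 to 1.04. Shares without gene length moved for all 20 values, and Wisp1 in MEF went from 7.93% to 17.5%.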
